A study of Mus musculus with 10 samples.

Results

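The 10 genes of the V(D)J recombination machinery were examined in the mouse thymus: Rag1, Rag2, Dntt, Xrcc5, Xrcc6, Prkdc, Dclre1c, Lig4, Xrcc4 and Nhej1. They were chosen by name for the step of the reaction that each protein carries out. The rule itself uses no measured value, but the list was drawn up with earlier results of these data known. They are 10 of 35375 features in the count table, and all 10 passed the filter on low counts that left 19511 genes to test. Gene-level reads had been counted in total RNA, depleted of ribosomal RNA, from the thymus of C57BL/6J mice 3 days after birth. Usp7, which encodes an enzyme that removes ubiquitin from other proteins, was knocked out in hematopoietic cells on both alleles (homozygous KO, n = 3 animals) or on 1 allele (heterozygous KO, n = 3 animals), and n = 4 animals were wild type. The series describes 2 wild types with cre, the recombinase used to delete a gene in chosen cells, and 2 without, and does not say which library is which. Wild type replicates 3 and 4 have a title form of their own, and the names of their count columns add the word het. They were kept as wild type because their titles and genotype labels say so, although their Usp7 levels, given below, were the lowest of the 4, and comparisons with each pair of wild types alone were made. The promoter that drives cre is not named in the sources used here.

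V(D)J recombination builds the genes of T cell and B cell receptors. In a developing lymphocyte the RAG recombinase, made of RAG1 and RAG2 protein, cuts DNA beside V, D and J segments, and the general machinery of non-homologous end joining, present in most cells, rejoins the ends. In the thymus this happens first at the receptor beta locus in double-negative thymocytes, which lack CD4 and CD8, and then at the alpha locus in the abundant double-positive thymocytes, which carry both. Terminal transferase, encoded by Dntt, adds bases at the junctions that no template specifies. Mice without either Rag gene have no mature T or B cells.

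Library totals ran from 39.8 to 86.4 M counts for the wild types, from 90.5 to 97.4 M for the heterozygous KO and from 92.3 to 122 M for the homozygous KO. The rarest member, Nhej1, had at least 186 counts in every library, and Rag1 had between 267187 and 565382. Values are given as CPM, counts per M scaled by TMM. Usp7 itself fell in homozygous KO, with 303, 422 and 408 CPM against 676, 670.3, 594 and 589 CPM in wild type (log2 fold change -0.74, SE 0.11, edgeR adjusted p 5.2e-04). In heterozygous KO it was 472, 516 and 516 CPM (log2 fold change -0.34, SE 0.11, edgeR adjusted p 0.608). The homozygous KO thymus kept 59.7% of the wild-type mean. These are counts over the whole gene in whole thymus, so the share of intact Usp7 RNA or of protein is not known from them. Xist, the RNA of the inactive X chromosome, was at 1913 to 2459 CPM in wild type replicates 2 to 4 and at 2042 CPM in homozygous KO replicate 3, and at most 1.12 CPM in the other 6 libraries, so that the sexes were not balanced over the groups. The 6 markers of double-positive thymocytes summed to between 3473 and 4338 CPM over the 10 libraries, which is the thymus profile the label gives. By animal number in the titles the libraries fall into 44 to 51 and 56 to 63, and values within both blocks are given below for the recombinase genes.

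Rag1, a subunit of the recombinase, and Dntt, terminal transferase, were lower in homozygous KO. Against wild type, these were the 2 of 10 members that were called, where 25.8% of all tested genes were called and 13.2% were called lower. The share of members called was not above that background. Against heterozygous KO, 3 of 10 were called, Rag1 and Dntt lower and Xrcc6 higher, beside 17.1% of all tested genes, 9.5% lower and 7.63% higher. In heterozygous KO against wild type 0 of 10 were called by edgeR, none had an unadjusted p under 0.05 except Dclre1c, and DESeq2 also called 0. Over all genes that comparison called 0.0154%, which is 3 genes, with 1421 at an unadjusted p under 0.05. The median log2 fold change of the members was -0.10, -0.15 and -0.02 in these comparisons, beside medians of -0.01, 0.00 and -0.01 over all tested genes.

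**Figure D1:**
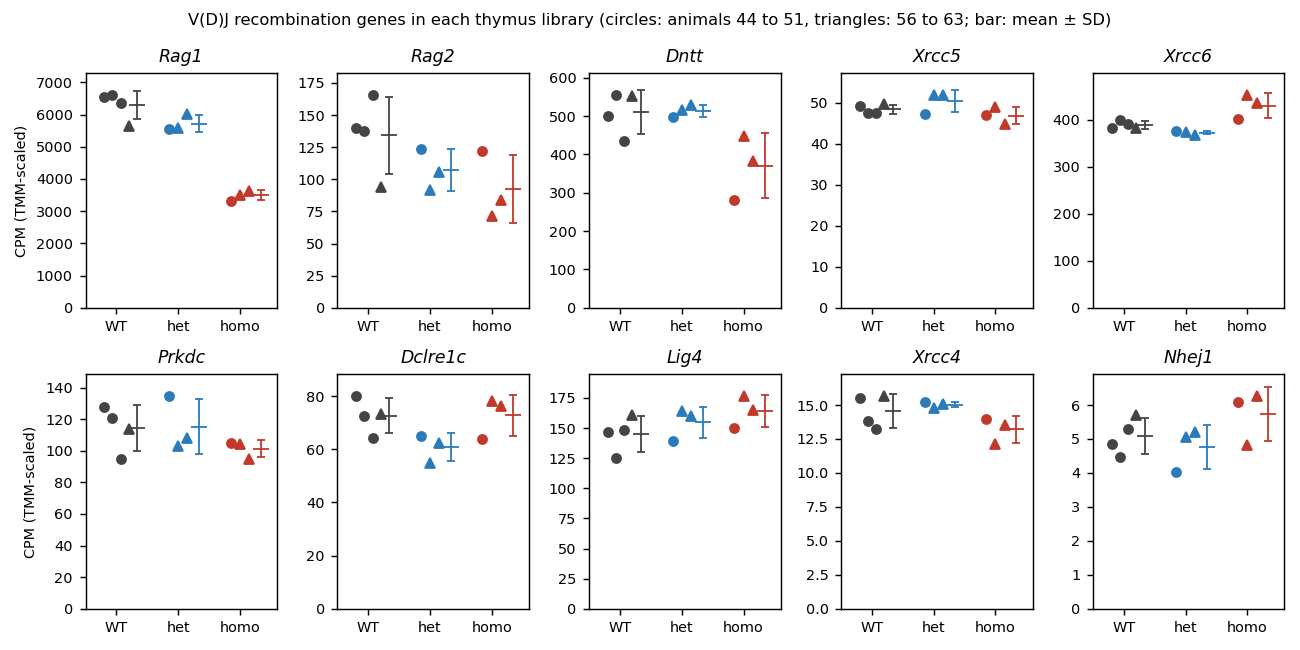
Expression of the 10 members in each library, in TMM-scaled CPM on linear axes that start at 0, with wild type (WT, n = 4), heterozygous KO (het, n = 3) and homozygous KO (homo, n = 3); circles are animals numbered 44 to 51, triangles 56 to 63, and bars show the mean ± SD. Rag1 lies between 3328 and 3639 CPM in the homozygous KO libraries, below every other library, while the points of Xrcc5 lie between 44.8 and 52.0 CPM in all groups.

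The stretches of 250 bases before the annotated starts of Rag1, Rag2 and Dntt are printed because these genes had the lowest fitted fold changes of the 10 in homozygous KO, and because the study concerns E-proteins, transcription factors that bind the E-box CANNTG. They come from RefSeq (GRCm38.p6), whose promoter table matched 9 of the 10 members, all but Prkdc, and are read 5′ to 3′ on the strand of the gene, with each CANNTG in capitals. The Rag1 stretch is chr2:101649533-101649782 on the minus strand, the Rag2 stretch chr2:101624462-101624711 on the plus strand, and the Dntt stretch chr19:41029025-41029274 on the plus strand.
Rag1: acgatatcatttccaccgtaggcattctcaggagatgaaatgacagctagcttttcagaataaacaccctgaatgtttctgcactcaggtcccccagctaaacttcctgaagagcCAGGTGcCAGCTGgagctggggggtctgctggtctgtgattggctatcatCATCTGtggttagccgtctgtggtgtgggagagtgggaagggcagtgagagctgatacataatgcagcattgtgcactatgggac
Rag2: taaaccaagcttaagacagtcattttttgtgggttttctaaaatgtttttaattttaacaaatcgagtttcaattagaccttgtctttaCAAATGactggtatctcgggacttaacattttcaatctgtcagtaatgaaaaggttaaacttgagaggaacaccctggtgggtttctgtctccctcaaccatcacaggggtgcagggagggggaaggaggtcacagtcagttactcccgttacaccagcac
Dntt: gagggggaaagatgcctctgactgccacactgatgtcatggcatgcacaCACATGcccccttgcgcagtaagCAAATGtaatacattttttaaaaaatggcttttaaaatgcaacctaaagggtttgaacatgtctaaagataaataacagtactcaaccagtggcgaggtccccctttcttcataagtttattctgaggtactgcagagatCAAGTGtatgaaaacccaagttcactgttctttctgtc
CANNTG reads the same on both strands, and 66.2% of 32851 promoter stretches of this length hold at least 1 copy. Rag1 held 3, which begin 135, 128 and 85 bases before the start. The first is CAGGTG, found on either strand in 17.2% of the stretches, and the next is CAGCTG, found in 13.0%. The E-box nearest to the start of Rag1 overlaps 1 of its 2 copies of TGTGGT, a core bound by RUNX factors that 14.0% of the stretches hold. Rag2 held 1 E-box, 161 bases before its start, and neither CAGGTG nor CAGCTG. Dntt held 3, at 201, 178 and 38 bases, together with 1 copy of AGATAA, which is a core for GATA factors that 9.99% of the stretches hold. Of the other members, Xrcc4 held 0 E-boxes and Xrcc5, Xrcc6, Dclre1c, Lig4 and Nhej1 held 1 or 2 in each stretch. These matches describe letters in a window and no binding was measured here.

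Rag1 encodes the subunit of the recombinase that binds the recombination signals and cuts the DNA. The gene (ENSMUSG00000061311) spans 101638282 to 101649501 on chromosome 2 in GRCm38, with 2 exons of 6608 bases in all. Its level was 3328, 3507 and 3639 CPM in homozygous KO, 5564, 5579 and 6011 CPM in heterozygous KO, and 6561, 6622, 6361 and 5656 CPM in wild type. Every homozygous KO library was below every library of the other groups, and the heterozygous KO and wild-type libraries overlapped. The means were 3491 ± 156 (SD, n = 3), 5718 ± 254 (SD, n = 3) and 6300 ± 444 (SD, n = 4) CPM, which put homozygous KO at 55.4% of wild type and heterozygous KO at 90.8%. Rag1 fell in homozygous KO by 0.85 on the log2 scale against wild type (SE 0.07, 95% interval -1.01 to -0.69, edgeR adjusted p 1.5e-05). It also fell against heterozygous KO, by 0.71 (SE 0.08, 95% interval -0.88 to -0.54, edgeR adjusted p 1.0e-04). Heterozygous KO differed from wild type by -0.14 (95% interval -0.30 to 0.02, edgeR adjusted p 0.727). Within animals 44 to 51 the log2 difference between homozygous KO and wild type was -0.97, and within 56 to 63 it was -0.66, each with an arm of 1 library. In whole thymus, fewer cells of a type and less RNA per cell cannot be told apart.

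Rag2 encodes the partner subunit, which reads a histone mark of active chromatin and is needed for cutting. The gene (ENSMUSG00000032864) runs on the opposite strand from 101624718 to 101632529 on chromosome 2, 5.75 kb from Rag1. It had 122, 71.4 and 84.1 CPM in homozygous KO, 124, 91.4 and 106 CPM in heterozygous KO, and 140.2, 138, 166 and 93.8 CPM in wild type. All 3 groups overlapped: homozygous KO replicate 1 was level with the highest heterozygous KO library, and wild type replicate 4 was below 1 homozygous KO library. The means were 92.5 ± 26.3 (SD, n = 3), 107 ± 16.2 (SD, n = 3) and 135 ± 29.9 (SD, n = 4) CPM. Homozygous KO differed from wild type by -0.54 on the log2 scale (SE 0.21, 95% interval -0.99 to -0.09), which edgeR did not call (adjusted p 0.0782). This call turned on single libraries: without homozygous KO replicate 1 the value was -0.79 (edgeR adjusted p 0.0137), and leaving out wild type replicate 4 gave -0.68 (edgeR adjusted p 0.0201). Over 21 alternatives the adjusted p lay between 0.00661 and 0.282, and 6 of them called Rag2 lower. Against wild type the heterozygous KO value was -0.33 (95% interval -0.78 to 0.12, edgeR adjusted p 0.791). In each group every library of animals 44 to 51 had more Rag2 than every library of animals 56 to 63. Homozygous KO replicate 1 is the only homozygous KO library of 44 to 51. Wild type replicate 4 is the only wild type of 56 to 63. Leaving out either one therefore ties genotype more closely to animal number. Within both animal-number blocks the log2 difference of homozygous KO from wild type was -0.28, against -0.54 in the fit over all libraries. Each block had an arm of 1 library, and the part of animal number was not tested.

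Rag2 varied more between the libraries of a group than its neighbour. Within each group its values were higher in animals 44 to 51 than in 56 to 63, as given above. Its coefficient of variation was 22.2% in wild type and 28.5% in homozygous KO, where Rag1 had 7.04% and 4.46%, at no fewer than 5711 counts of Rag2 in a library. The difference log2 Rag1 minus log2 Rag2 was 4.77, 5.62 and 5.43 in homozygous KO and 5.55, 5.58, 5.26 and 5.91 in wild type. The group means differed by -0.30, and an exact two-sided permutation test gave p = 0.371, where 35 splits allow no p below 0.0286. A difference in how far Rag1 and Rag2 changed was thus not shown, by a test that took no account of animal number. In each group this difference was lower in every library of animals 44 to 51 than in every library of 56 to 63. Within 44 to 51 the group means differed by -0.69. Within 56 to 63 homozygous KO differed from wild type by -0.66 for Rag1 and by -0.28 for Rag2. Each block had an arm of 1 library. Without homozygous KO replicate 1, the library with the lowest difference and the only homozygous KO of 44 to 51, the means differed by -0.05.

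Dntt encodes terminal transferase. The gene (ENSMUSG00000025014) lies on chromosome 19 from 41029275 to 41059525. It had 279.8, 448 and 384 CPM in homozygous KO, 498, 515 and 529 CPM in heterozygous KO, and 499.7, 556, 435 and 551 CPM in wild type. The homozygous KO libraries were all below the heterozygous KO libraries, while 1 of them lay above the lowest wild type. Dntt fell in homozygous KO by 0.46 on the log2 scale against wild type (SE 0.14, 95% interval -0.76 to -0.16, edgeR adjusted p 0.0286). Against heterozygous KO it fell by 0.47 (SE 0.14, 95% interval -0.79 to -0.15, edgeR adjusted p 0.0454). The heterozygous KO mean was 101% of wild type, with a log2 fold change of 0.01 (95% interval -0.29 to 0.31, edgeR adjusted p 0.993). Both calls rested on few libraries. The call against wild type was kept in 12 of 21 alternatives, with adjusted p between 0.00434 and 0.161. Leaving out homozygous KO replicate 1, which had the lowest Dntt value, gave -0.30 (edgeR adjusted p 0.0523), and the call was also lost without homozygous KO replicate 3 (0.0556) or wild type replicates 1, 2 or 4 (0.0534, 0.0744 and 0.0590). The call against heterozygous KO was kept in 9 of 19 alternatives and was lost without homozygous KO replicate 1 or 3, without any 1 heterozygous KO library, and without wild type replicate 1, 2 or 4. Within animals 44 to 51 the log2 difference from wild type was -0.82, and within 56 to 63 it was -0.41.

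**Figure D2:**
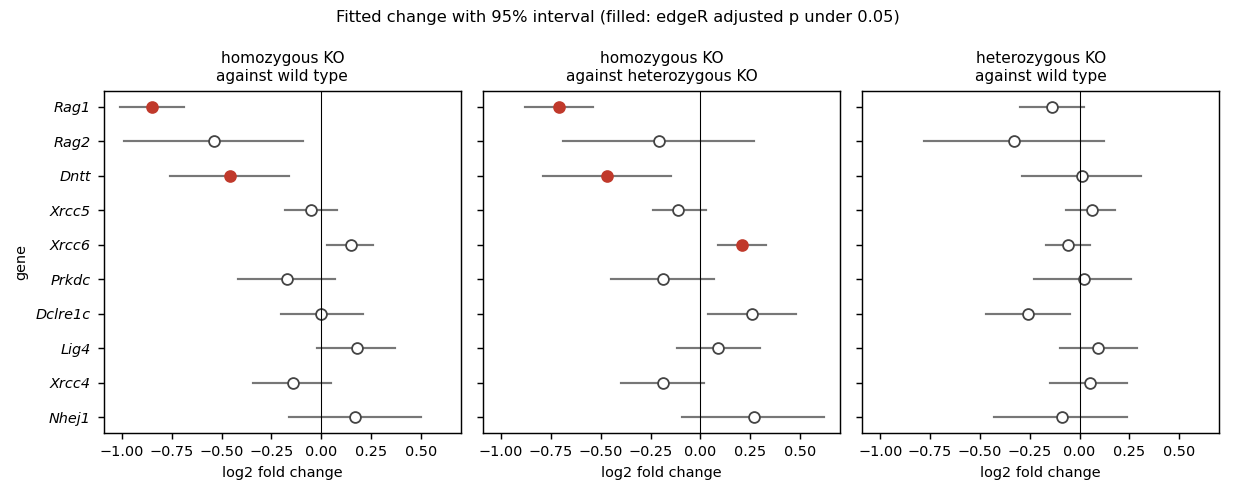
Fitted log2 fold change of each member with its 95% interval in the 3 comparisons, on a shared axis; filled points are called by edgeR at an adjusted p under 0.05, and open points are not called. Rag1 is the member farthest below 0 in both comparisons of homozygous KO, at -0.85 and -0.71, and no member is filled in heterozygous KO against wild type.

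The proteins that recognise and hold the cut ends came next. Xrcc5 (Ku80, ENSMUSG00000026187, chromosome 1 from 72307421 to 72394952) and Xrcc6 (Ku70, ENSMUSG00000022471, chromosome 15 from 81987835 to 82040085) encode the ring that slides onto a broken end. Xrcc6 had 400.4, 453 and 435 CPM in homozygous KO, 376, 373 and 368 CPM in heterozygous KO, and 381, 399.6, 390.2 and 382 CPM in wild type. The 3 groups did not overlap, although the lowest homozygous KO and the highest wild type differed by less than 1 CPM. Xrcc6 rose in homozygous KO against heterozygous KO by 0.21 on the log2 scale (SE 0.05, 95% interval 0.09 to 0.33, edgeR adjusted p 0.0243), a call kept in 10 of 19 alternatives. It was lost without homozygous KO replicate 2 (edgeR adjusted p 0.0857) or 3 (0.0670) and without any 1 heterozygous KO library (0.0540 to 0.0902). Against wild type the value was 0.15 (95% interval 0.03 to 0.26), which missed the threshold (edgeR adjusted p 0.0565) and passed it without homozygous KO replicate 1 (0.19, edgeR adjusted p 0.0163). Xrcc6 shares 344 exon bases with Desi1 on the opposite strand, and Desi1 rose too, by 0.32 (edgeR adjusted p 0.00404). The strand setting used in counting is not given in the sources used here, so how reads from the shared bases were treated is not known.

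Xrcc5, the partner of Xrcc6, had 46.9, 48.9 and 44.8 CPM in homozygous KO, 47.2, 52.0 and 52.0 CPM in heterozygous KO, and 49.2, 47.5, 47.5 and 49.6 CPM in wild type. All groups overlapped, and homozygous KO differed from wild type by -0.05 on the log2 scale (95% interval -0.18 to 0.08, edgeR adjusted p 0.578). That interval holds changes no larger than 0.18 in either direction. Per kilobase of exon, Xrcc6 exceeded Xrcc5 at least 4.88-fold in the homozygous KO libraries, and at most 4.54-fold in heterozygous KO and 4.8-fold in wild type, so that the homozygous KO range lay above the others.

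Prkdc encodes DNA-PKcs, the kinase that Ku recruits to the ends, and Dclre1c encodes Artemis, the nuclease that opens the hairpins RAG leaves on coding ends. Prkdc (ENSMUSG00000022672) lies on chromosome 16 from 15637866 to 15842235, 6.85 Mb from Usp7. It had 105, 104 and 95.1 CPM in homozygous KO, 135, 103 and 108 CPM in heterozygous KO, and 128, 121, 94.7 and 114 CPM in wild type, with all groups overlapping. Homozygous KO and wild type differed by -0.17 on the log2 scale (95% interval -0.42 to 0.07, edgeR adjusted p 0.285). Dclre1c (ENSMUSG00000026648, chromosome 2 from 3424131 to 3464130) had 64.0, 78.1 and 76.1 CPM in homozygous KO, 64.9, 54.8 and 62.4 CPM in heterozygous KO, and 80.2, 72.6, 64.3 and 73.4 CPM in wild type. The heterozygous KO libraries were the low ones: 2 of 3 lay below every other library, and 1 lay within the range of both other groups. Homozygous KO and wild type had means of 72.8 and 72.7 CPM (log2 fold change 0.00, 95% interval -0.20 to 0.21, edgeR adjusted p 0.988). Heterozygous KO differed from wild type by -0.26 (SE 0.09, 95% interval -0.47 to -0.05), with an unadjusted p of 0.0182 in edgeR and an adjusted p of 0.645. Dclre1c shares 357 exon bases with Suv39h2 on the opposite strand, whose log2 fold change in homozygous KO was 0.12 (edgeR adjusted p 0.358).

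The ligation step is carried out by DNA ligase IV with its partners XRCC4 and XLF, encoded by Lig4, Xrcc4 and Nhej1. Lig4 (ENSMUSG00000049717, chromosome 8 from 9969049 to 9977686) had 150.1, 177 and 165 CPM in homozygous KO, 139.6, 164 and 160.2 CPM in heterozygous KO, and 147, 125, 148 and 161 CPM in wild type. The groups overlapped, and Lig4 differed between homozygous KO and wild type by 0.18 (95% interval -0.02 to 0.37, edgeR adjusted p 0.173). Xrcc4 (ENSMUSG00000021615, chromosome 13 from 89774027 to 90089608) had 14.0, 12.1 and 13.5 CPM in homozygous KO, 15.2, 14.8 and 15.1 CPM in heterozygous KO, and 15.5, 13.8, 13.2 and 15.7 CPM in wild type. Its homozygous KO libraries were below the heterozygous KO libraries and overlapped wild type. The log2 fold change against wild type was -0.14 (95% interval -0.34 to 0.05, edgeR adjusted p 0.278), and against heterozygous KO -0.19 (edgeR adjusted p 0.222). Xrcc4 shares 112 exon bases with Tmem167 on the opposite strand (0.02, edgeR adjusted p 0.887), and the antisense gene Gm4117 lies within it with no shared exon base (-0.61, edgeR adjusted p 0.382). Nhej1 (ENSMUSG00000026162, chromosome 1 from 74967139 to 75125200) ranged from 4.81 to 6.28 CPM in homozygous KO, 4.03 to 5.22 CPM in heterozygous KO and 4.48 to 5.70 CPM in wild type, with a log2 fold change of 0.17 against wild type (95% interval -0.16 to 0.50, edgeR adjusted p 0.441).

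Counting members whose groups did not overlap gave 2 of 10 in homozygous KO against wild type (Rag1 and Xrcc6), 4 of 10 against heterozygous KO (Rag1, Dntt, Xrcc6 and Xrcc4) and 1 of 10 in heterozygous KO against wild type (Xrcc6). Over all tested genes these shares were 32.7%, 33.3% and 8.69%. The 2 homozygous KO comparisons share their homozygous KO libraries and the wild-type comparisons share the wild types, so that these counts are not independent.

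On a scale that allows genes to be compared, CPM per kilobase of exon, Rag1 was the most abundant member. The exon lengths are those of the GRCm38 annotation, whereas reads were counted on mm9 with a release that is not given. Ranks and ratios per kilobase, here and above for Xrcc6 and Xrcc5, are therefore approximate. In wild type it reached 953 ± 67.1 (SD, n = 4) and ranked 19 among 14492 tested protein-coding genes. Dntt followed with 223 ± 24.5 (rank 121) and Xrcc6 with 86.7 ± 1.97 (rank 367). Rag2 had 39.3 ± 8.72 and Lig4 27.9 ± 2.85 on this scale, and these neighbours in the order overlapped between libraries. Xrcc5 had 19.0, and Prkdc (8.66 ± 1.08) and Dclre1c (7.80 ± 0.702) again overlapped. Nhej1 and Xrcc4 were the lowest at 4.54 and 3.46. In homozygous KO Rag1 had 528 and stayed first, while Rag2, with a mean of 27.0 (20.8 to 35.6), and Lig4, with a mean of 31.6, again overlapped. Rag1 exceeded Rag2 19.9- to 31.2-fold per kilobase in the wild-type libraries. Rag1 exceeded Xrcc6 10.04- to 11.67-fold in wild type, 10.03- to 11.06-fold in heterozygous KO and 5.25- to 5.66-fold in homozygous KO. Rag1 alone already separated the homozygous KO libraries from all others, so that this ratio is no separate result.

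Rag1 was then set against the markers of the cells that express it most. The 6 double-positive markers (Cd4, Cd8a, Cd8b1, Cd1d1, Arpp21 and Ccr9) summed to 4264 to 4338 CPM in homozygous KO, 3473 to 3742 CPM in heterozygous KO and 3605 to 4116 CPM in wild type. Of these 6, Cd8a and Arpp21 rose and Cd1d1 fell in homozygous KO against wild type, and 3 were not called. The list's median was 0.09, and 25.8% of all tested genes were called in this comparison. The log2 level of Rag1 minus the mean log2 level of these markers was 2.87, 2.88 and 2.96 in homozygous KO. It was 3.79, 3.82 and 3.81 in heterozygous KO, and 3.88, 3.88, 3.74 and 3.76 in wild type. Homozygous KO stood apart from both other groups, which overlapped. Its mean of 2.91 ± 0.05 (SD, n = 3) differed by -0.91 from the wild-type mean of 3.82 ± 0.08 (SD, n = 4). An exact two-sided permutation test gave p = 0.0286, the smallest that 35 splits can give. Rag1 alone already separated these libraries, and their mean log2 marker level varied only from 8.71 to 8.89. That p was therefore near fixed beforehand and adds nothing to the Rag1 call. Taken in the same way, Rag2 differed by -0.61 and Dntt by -0.54, with no test. Against the library as a whole the fitted Rag1 difference was -0.85. Whether these markers follow the number of double-positive cells was not tested.

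**Figure D3:**
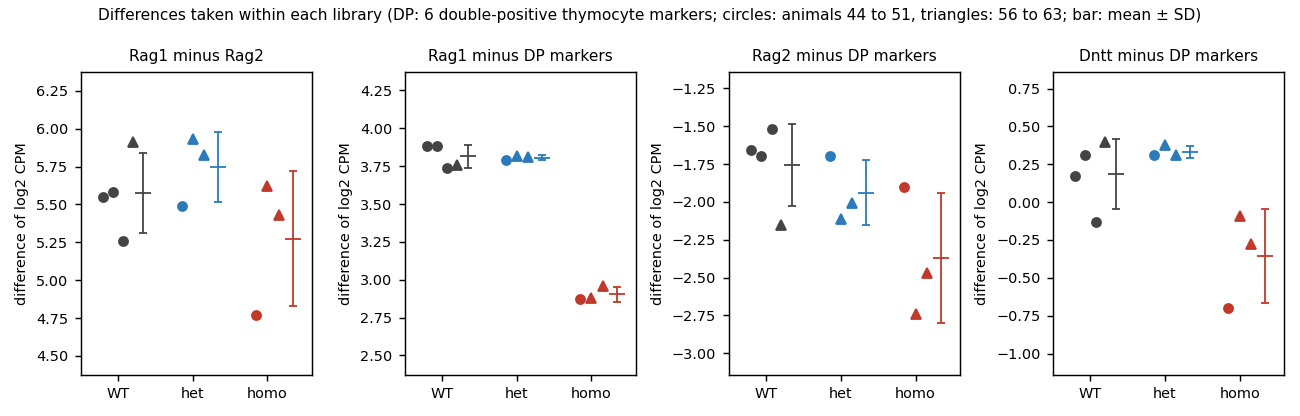
Differences of log2 CPM taken within each library, for Rag1 minus Rag2 and for Rag1, Rag2 and Dntt minus the mean of 6 double-positive (DP) thymocyte markers; every panel spans the same number of log2 units, points are libraries (circles animals 44 to 51, triangles 56 to 63) and bars show the mean ± SD. Rag1 minus the DP markers lies between 2.87 and 2.96 in homozygous KO and between 3.74 and 3.88 elsewhere, whereas Rag1 minus Rag2 overlaps between all groups.

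Markers of some other cell types also differed in level between the groups. Of 7 markers of mature single-positive thymocytes 6 fell in homozygous KO, and their sum was 154 to 232 CPM against 294 to 413 CPM in wild type. All 9 mitosis genes rose, with sums of 5727 to 7948 CPM against 4120 to 5180 CPM. Double-negative markers were divided, with 2 higher, 3 lower and 3 not called, and sums of 609 to 1461 CPM against 505 to 733 CPM. Of 8 tested B cell markers 7 fell, with sums of 7.65 to 10.2 CPM against at least 34.2 CPM, and Ms4a1 and Pax5 were at 0 in at least 1 library. Vpreb1 and Igll1, which mark the B cell precursors that also recombine, were at most 0.505 and 0.11 CPM in any library. Of 8 myeloid markers 2 rose and 2 fell, of 10 markers of epithelium and stroma 3 rose and 0 fell, and of 4 erythroid markers 0 were called by edgeR, with 2 at an unadjusted p under 0.05 and 0 called by DESeq2. Beside these counts, 25.8% of all tested genes were called in homozygous KO against wild type. The part of these marker differences in the levels of Rag1, Rag2 and Dntt was not tested.

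Beyond the 10 members, factors that process ends in classical end joining included some large falls. Of 14 end-joining accessory genes 1 rose and 4 fell in homozygous KO relative to wild type (35.7% of the list), with a median of -0.02, where 25.8% of all tested genes were called, 12.5% higher and 13.2% lower. Parp3, a poly(ADP-ribose) polymerase that acts at breaks, had 5.30, 5.09 and 5.16 CPM in homozygous KO, 12.3, 10.7 and 12.0 CPM in heterozygous KO and 17.3, 15.4, 14.5 and 13.3 CPM in wild type. The 3 groups did not overlap, and Parp3 fell by 1.54 on the log2 scale (SE 0.11, edgeR adjusted p 4.3e-06). Poll, DNA polymerase lambda, which fills gaps at junctions, had 0.986 to 2.37 CPM in homozygous KO and 2.90 to 5.93 CPM in wild type, and fell by 1.21 (SE 0.31, edgeR adjusted p 0.0146). Tdp1, which removes blocked 3′ ends, rose by 0.31 (SE 0.08, edgeR adjusted p 0.0138). Polm, the polymerase most like terminal transferase, was not called (-0.22, edgeR adjusted p 0.145).

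Among 15 tested genes of break signalling 4 rose and 1 fell (33.3% of the list), with a median of 0.13. Of all tested genes 25.8% were called, 12.5% higher and 13.2% lower. H2afx, the histone variant that is phosphorylated around breaks, had 700.4 to 1076 CPM in homozygous KO and 518 to 623 CPM in wild type, and rose by 0.60 (SE 0.13, edgeR adjusted p 0.00523). Mad2l2, a shieldin subunit that limits resection of ends, rose by 0.41 (edgeR adjusted p 0.00503). Trp53bp1, or 53BP1, which also guards ends from resection, fell by 0.26 (edgeR adjusted p 0.00843). Atm, the kinase activated by RAG breaks, was not called (0.13, edgeR adjusted p 0.337). Of 8 factors of alternative, microhomology-based end joining 4 rose and 0 fell, with a median of 0.25, led by Lig1 (0.43, edgeR adjusted p 0.0117) and Polq (0.41, edgeR adjusted p 0.0185). H2afx and Lig1 were highest in homozygous KO replicate 1, which also had the highest sum of the mitosis genes, and the part of that library or of mitosis in these rises was not tested. Without that library 3 of 14 accessory factors, 5 of 15 break signalling genes and 2 of 8 alternative joining genes were called, and Polq was not (0.30, edgeR adjusted p 0.0692). With only 1 pair of wild types as controls Tdp1 and Polq lost their calls for either pair, Poll, Trp53bp1 and Lig1 with replicates 3 and 4, and H2afx with replicates 1 and 2 (edgeR adjusted p 0.0505 to 0.107). With library totals as the only scaling Tdp1 and Polq were not called (edgeR adjusted p 0.0565 for both).

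Proteins that assist or degrade the recombinase were measured next. Of 11 such partners 4 rose and 0 fell (36.4% of the list), with a median of 0.10, beside 25.8% of all tested genes called. Hmgb2, a DNA-bending protein that helps RAG to hold its signals, had 848 to 1262 CPM in homozygous KO, 656 to 735 CPM in heterozygous KO and 571 to 685 CPM in wild type, and rose by 0.68 (SE 0.12, edgeR adjusted p 0.00156). Kpna2, an importin that binds RAG1, rose by 0.56 (edgeR adjusted p 0.0139), a call lost with wild type replicates 3 and 4 as the only controls (edgeR adjusted p 0.106). Without homozygous KO replicate 1, where Hmgb2 was highest, 3 of the 11 were called. Hmgb1, which shares the role of Hmgb2, was not called (0.10, edgeR adjusted p 0.422), and neither was Skp2, part of the ligase that degrades RAG2 as cells enter S phase (0.30, edgeR adjusted p 0.232).

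Of 24 transcription factors and chromatin regulators tied to the Rag locus or to the accessibility of receptor loci, 4 rose, 2 fell and 18 were not called, with a median of 0.03. The share called, 25.0%, was close to the 25.8% of all tested genes. The E-protein genes Tcf3 (E2A) and Tcf12 (HEB) were not called, at 0.13 (edgeR adjusted p 0.0642) and 0.20 (edgeR adjusted p 0.0613). Runx3, which acts on the Cd4 silencer, rose by 0.50 (edgeR adjusted p 0.00284). Rad21, a cohesin subunit that shapes receptor loci, rose by 0.43 (edgeR adjusted p 0.0013). Bcl11a, a lymphoid progenitor and B cell factor, had 0.597 to 0.842 CPM in homozygous KO, 3.18 to 4.25 CPM in heterozygous KO and 4.50 to 7.34 CPM in wild type, and fell by 3.16 (SE 0.23, edgeR adjusted p 5.4e-06). The groups of Bcl11a did not overlap. Most B cell markers given above fell in the same comparison, and of 8 double-negative markers 3 fell and 2 rose. The source of the fall of Bcl11a was not tested. Satb1, a chromatin organiser needed at the Rag locus in double-positive cells, had 2287 to 2431 CPM in homozygous KO and 2609 to 2867 CPM in wild type, and fell by 0.21 (SE 0.05, edgeR adjusted p 0.0166). Its call was lost with only the groups compared (edgeR adjusted p 0.0521), with wild type replicates 3 and 4 as the only controls (0.0914) and with a replicate block (0.0703). Foxo1, which drives Rag expression in B cell precursors, was not called (-0.11, edgeR adjusted p 0.528).

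**Figure D4:**
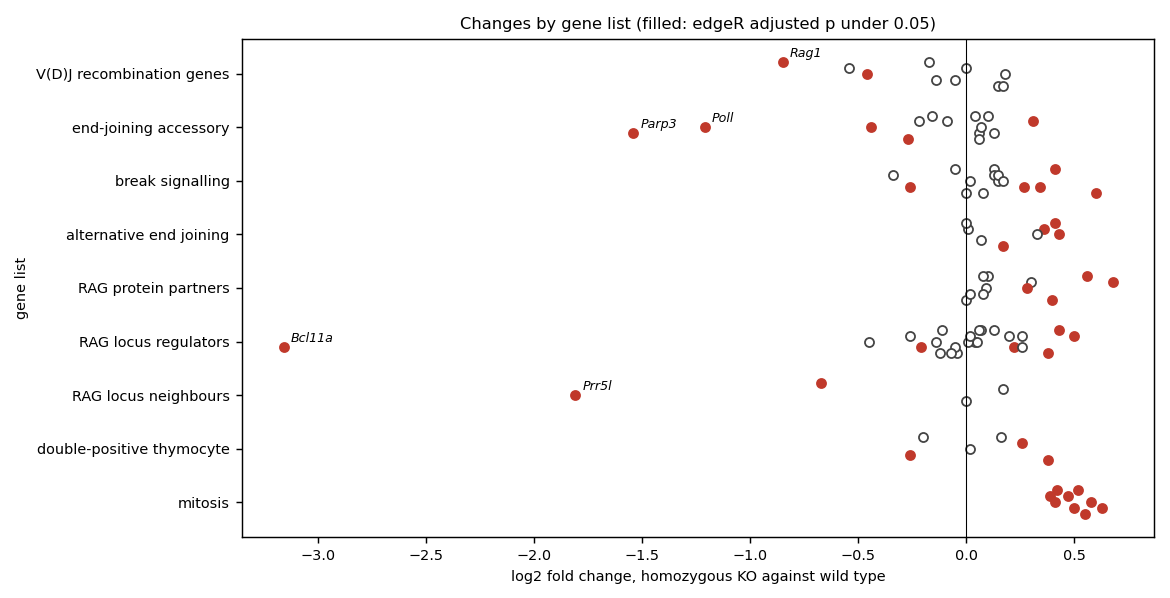
Fitted log2 fold change between homozygous KO and wild type for every tested gene of the member list, of the 6 related lists and of the double-positive and mitosis marker lists; each point is 1 gene, filled where edgeR called it at an adjusted p under 0.05, and the vertical spread within a row only separates points. Most genes lie near 0, with Rag1 (-0.85), Poll (-1.21), Parp3 (-1.54), Prr5l (-1.81) and Bcl11a (-3.16) far below it and all 9 mitosis genes above it.

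The genes beside Rag1 and Rag2 did not move as 1 block. B230118H07Rik spans the Rag2 gene on the other strand and reaches past the start of Rag1, sharing 208 exon bases with Rag2 and 80 with Rag1. It had 9.48, 11.6 and 11.5 CPM in homozygous KO, 16.4, 14.9 and 15.7 CPM in heterozygous KO, and 17.9, 15.8, 17.5 and 17.7 CPM in wild type. It fell by 0.67 (SE 0.09, edgeR adjusted p 4.5e-04). Rag1 had a far higher level, and how reads from the 80 shared bases were treated in counting is not given in the sources used here. Traf6, 28.9 kb from Rag1 on its far side, was not called (0.17, edgeR adjusted p 0.359). Prr5l, 64.8 kb away on that side, had 0.590 to 0.782 CPM in homozygous KO and 2.06 to 2.45 CPM in wild type, and fell by 1.81 (SE 0.18, edgeR adjusted p 5.1e-05). Commd9, 237 kb away, had a log2 fold change of 0.00 (edgeR adjusted p 0.982).

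Between heterozygous KO and wild type, edgeR called 0 of the 76 tested genes of these 6 lists, with 3 at an unadjusted p under 0.05, and DESeq2 called 0. The medians of the lists lay between -0.06 and 0.07, and the lowest single value was -0.66. Between homozygous KO and heterozygous KO 2 accessory genes fell, 2 break signalling genes and 2 RAG partners rose, and 0 of the 8 alternative joining genes were called by edgeR, with 3 at an unadjusted p under 0.05 and 1 called by DESeq2. Of the regulators 4 rose and 1 fell, and of the neighbours 2 fell. Over all tested genes this comparison called 17.1%, with 7.63% higher and 9.5% lower.

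The genes whose profile over the 10 libraries was most like that of Rag1, by the root mean square difference of centred log2 CPM among 8839 candidates, were Prkch (0.0709), Tsc22d1 (0.0712) and Taf1c (0.0740). Prkch, protein kinase C eta, had mean levels of 61.1, 105 and 113 CPM in homozygous KO, heterozygous KO and wild type. For Rag2 they were Prpf40b (0.0857), Zbtb26 (0.0896) and Irgm2 (0.111), and for Dntt they were Parp4 (0.0977), Cyfip1 (0.107) and Vsir (0.107). They were picked for this likeness, so no test was made.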

How the data were processed

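The authors deposited 1 table of raw read counts per gene, not normalized, with a column per animal. Per the labels the tools were CASAVA, STAR 2.4.1d and HTSeq 0.6.1p1 with the build NCBIM37/mm9, whereas the study's methods describe a BWA-based pipeline with HTSeq. The annotation release and the strand setting are not given in the sources used here. Columns were matched to samples by the animal number in the titles. For wild type replicates 3 and 4 the column name adds het, and the title was followed. Of 34467 Ensembl identifiers 30204 matched the GENCODE annotation of GRCm38, from which symbols, positions and exon lengths were taken, and 908 features had other names. All features entered the library totals. The 12 pairs within groups differed by a chi-square per degree of freedom of 12.6 to 108, so each library was 1 replicate.

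Counts were tested with edgeR 4.0.16 in R 4.3.3 (TMM, filterByExpr, glmQLFit, glmQLFTest) in 1 fit over all 10 libraries, tested on simulated data first. Calls used a Benjamini-Hochberg adjusted p under 0.05 over 19511 genes, and the common biological coefficient of variation was 0.207. The SE is the absolute log2 fold change divided by the root of F. Log2 CPM used a prior count of 2. That each library is a separate animal is taken from the titles. DESeq2 1.42.0 and other scalings, filters, control groups, covariates and left-out libraries were alternatives.

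The members and lists were chosen with earlier results of these data known. Named genes are the members, Usp7, genes overlapping a member, from each list up to 2 rises and 2 falls with the highest absolute change among its called genes (average log2 CPM at least 0), and the 3 genes most like Rag1, Rag2 and Dntt (average log2 CPM at least 3). Polm, Atm, Hmgb1, Skp2, Tcf3, Tcf12, Foxo1, Traf6, Commd9, Cd8a, Arpp21, Cd1d1, Vpreb1 and Igll1 were added after their values were seen. Shld3 and Hbb-b1 were not matched, and 1 double-positive marker of the planned list is not reported here and entered no marker value.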

Additional observations from a re-analysis of the deposited data

Results flagged for a closer look

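In 1 group a single library lay far from the others. B230118H07Rik, the gene that overlaps Rag1 and Rag2, had 15.8 CPM in wild type replicate 2 and 17.5 to 17.9 CPM in the other wild types. The gap was 0.833 of the group's range, above Dixon's 95% limit for 4 samples. The wild-type values of 27 genes were looked at in this way, and chance alone flags about 1 in 20.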

How the results depend on the processing

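The fall of Rag1 in homozygous KO was called in all 21 alternatives against wild type (-0.94 to -0.78) and in all 19 against heterozygous KO (-0.80 to -0.68). The number of members called in homozygous KO against wild type, 2, became 4 with DESeq2 (Rag2 and Xrcc6 added) and 1 with Xist as a covariate (an RNA high in 3 of 4 wild types, 1 of 3 homozygous KO and 0 of 3 heterozygous KO libraries), with only the groups compared, with the wild types that have 2 wt words in the title and with those that have 1, and it was 1 to 3 without 1 library. Against heterozygous KO, 3 became 1 with Xist as a covariate and with only the groups compared, and was 1 to 3 without 1 library. Over all genes, 5030 calls became 2670 with the wild types that have 1 wt word (3945 to 5152 without 1 library). The 3 calls in heterozygous KO became 58 with DESeq2 and 2 to 6 without 1 library. The 3342 calls between the knockouts were 2153 to 3370 without 1 library, lowest without heterozygous KO replicate 3. Scaling by library totals moved the median of all genes in homozygous KO against wild type to -0.11 and ended the Xrcc6 call against heterozygous KO (0.12, edgeR adjusted p 0.192).

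Calls in the lists fell with the 2 wt words to 2 accessory, 2 break signalling and 2 alternative joining genes, with 1 wt word to 1, 2 and 1 and to 1 RAG partner, with library totals to 3 break signalling and 2 alternative joining genes, and with Xist as a covariate to 3 accessory genes. Without 1 library they were 3 to 5, 5 to 6 and 2 to 4.

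Values near 0 changed sign. Dclre1c in homozygous KO against wild type was -0.09 with library totals, -0.01 with no filter, -0.02 with the animal-number block or Xist, -0.07 with the 2 wt words and -0.05 to 0.08 without 1 library. In heterozygous KO against wild type, Dntt was -0.09 with the animal-number block, -0.04 with the 2 wt words and -0.06 to 0.05 without 1 library. Prkdc was -0.11 with Xist, -0.10 with the 2 wt words and -0.10 to 0.09. Nhej1 was 0.01, 0.03 and -0.16 to 0.02. The cause was not tested.

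Rag1 minus Rag2 was -0.69 within animals 44 to 51, and within 56 to 63 the values were -0.66 for Rag1 and -0.28 for Rag2. Rag1 minus the double-positive markers was -0.98 and -0.84 with 2 and with 1 wt word, -0.84 within animals 56 to 63, and -0.94 to -0.89 without 1 library, where too few splits remain for an exact p under 0.05.

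Replicate numbers did not pair the libraries: same-numbered libraries correlated with r from -0.104 to 0.225 over genes. With the number as a replicate block, Rag2 in homozygous KO against wild type was -0.71 (edgeR adjusted p 0.00661), 3 accessory genes were called, and 5 genes were called in heterozygous KO.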
